A study of Homo sapiens with 4 samples.

Results

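The MHC class I antigen presentation genes were followed in WM35 cells, a human melanoma line of the radial growth phase. The set was fixed as 9 genes: HLA-B, HLA-C, HLA-E, HLA-F, B2M, TAP1, TAP2, PSMB8 and PSMB9. They were found by taking every row of the value table whose annotation lists one of these symbols. This gave 9 probe sets of 27631, and 9 genes of the 21371 named in the annotation. The 4 samples were C646 at 20 µM for 24 h, DMSO at 0.2% for 24 h, C646 at 20 µM for 6 h and DMSO at 0.2% for 6 h. C646 blocks the lysine acetyltransferases p300 and CBP, which acetylate histones and act as transcription coactivators, and DMSO is the solvent. Each condition was measured on 1 Affymetrix Human Exon 1.0 ST array, so a difference compares an array with an array and has no replicate check. All values are the authors' deposited log2 expression values unless said otherwise.

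MHC class I molecules carry short peptides to the cell surface, where cytotoxic T cells inspect them. The proteasome cuts cytosolic proteins, and in the immunoproteasome the catalytic subunits encoded by PSMB8 and PSMB9 take the place of their constitutive counterparts. The TAP1 and TAP2 proteins form the transporter that brings the peptides into the endoplasmic reticulum. There they are loaded onto a heavy chain, such as HLA-B, HLA-C, HLA-E or HLA-F, that is paired with beta-2-microglobulin, the product of B2M. Interferons raise the transcription of these genes in many cell types, and melanomas often lose part of this machinery.

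The map from probe sets to genes was not one to one. A probe set of their own existed for 6 genes: HLA-E (2901620), HLA-F (2900974), B2M (3592023), TAP1 (2950214), TAP2 (2950167) and PSMB8 (2950199). HLA-B and HLA-C shared probe set 2948926 and cannot be told apart here. PSMB9 shared probe set 2903285 with the antisense RNA gene PSMB8-AS1. A further probe set, 2950145, lists TAP2 together with the class II gene HLA-DOB. It read 3.52, 3.51, 3.56 and 3.52 in the order C646 at 24 h, DMSO at 24 h, C646 at 6 h and DMSO at 6 h, which is below the filter of 3.96 (the 40th percentile of the mean over the arrays). The other 8 passed. HLA genes vary between people, and whether the alleles of WM35 bind these probes like the reference alleles was not tested.

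RefSeq promoter sequences of the assembly GRCh38.p14 were available for 8 of the 9 genes, and they are shown because these genes are classical targets of interferon-regulated factors. Each stretch below holds the 200 bases before the gene's annotated start, 5′ to 3′ on the strand of the gene. Capitals mark matches on either strand to AANNGAAA, a short form of the interferon-stimulated response element (ISRE), or to the longer ISRE core, GAAA and GAAA with any 2 bases between them, which contains the short form. The stretches lie at chr6:32853705-32853904 (minus strand, TAP1), chr6:32838740-32838939 (minus strand, TAP2), chr6:32853992-32854191 (plus strand, PSMB9), chr6:31357180-31357379 (minus strand, HLA-B), chr6:31272093-31272292 (minus strand, HLA-C), chr6:29723234-29723433 (plus strand, HLA-F) and chr15:44711317-44711516 (plus strand, B2M).
TAP1: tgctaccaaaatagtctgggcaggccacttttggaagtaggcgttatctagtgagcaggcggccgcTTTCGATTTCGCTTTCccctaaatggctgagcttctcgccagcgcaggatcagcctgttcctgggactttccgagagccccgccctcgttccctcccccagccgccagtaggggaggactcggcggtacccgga
TAP2: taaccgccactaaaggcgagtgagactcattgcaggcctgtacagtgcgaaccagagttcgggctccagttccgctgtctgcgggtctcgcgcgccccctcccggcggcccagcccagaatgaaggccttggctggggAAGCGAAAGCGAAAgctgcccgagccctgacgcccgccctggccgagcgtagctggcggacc
PSMB9: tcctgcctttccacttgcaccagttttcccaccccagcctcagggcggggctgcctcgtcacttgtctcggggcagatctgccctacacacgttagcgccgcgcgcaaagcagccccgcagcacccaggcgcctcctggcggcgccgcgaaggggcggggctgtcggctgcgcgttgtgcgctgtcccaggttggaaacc
HLA-B: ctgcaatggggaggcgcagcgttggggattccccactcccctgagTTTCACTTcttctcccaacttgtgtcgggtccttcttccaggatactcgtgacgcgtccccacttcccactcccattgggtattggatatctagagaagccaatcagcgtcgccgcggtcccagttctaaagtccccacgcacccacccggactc
HLA-C: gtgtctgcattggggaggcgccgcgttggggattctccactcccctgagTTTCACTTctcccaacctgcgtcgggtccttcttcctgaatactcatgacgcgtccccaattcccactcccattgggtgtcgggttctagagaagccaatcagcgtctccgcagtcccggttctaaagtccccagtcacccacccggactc
HLA-F: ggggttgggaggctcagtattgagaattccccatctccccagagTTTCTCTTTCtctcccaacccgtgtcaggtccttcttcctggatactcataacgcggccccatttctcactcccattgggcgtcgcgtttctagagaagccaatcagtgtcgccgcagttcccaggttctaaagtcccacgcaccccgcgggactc
B2M: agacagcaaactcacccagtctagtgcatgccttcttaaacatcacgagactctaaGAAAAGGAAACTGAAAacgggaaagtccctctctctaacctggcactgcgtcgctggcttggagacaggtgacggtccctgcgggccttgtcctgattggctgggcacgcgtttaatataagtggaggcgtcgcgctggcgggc

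In windows from 250 bases before to 50 bases after a start, the ISRE core was found for 5 of these 8 genes and in 3.57% of 35116 windows of all genes. The 8 genes have 10 windows. Here and for the motifs below, a gene counts when any of its windows matches, while the share is per window, so the units differ. In TAP1 overlapping copies ran from base -134 to base -119, counted back from the start, in TAP2 the match lay at -58 to -49, in HLA-F at -156 to -147 and in B2M from -144 to -129. The fifth gene was PSMB8, which has 2 annotated starts, and there the match ran across the second one listed (bases -4 to 6). HLA-B and HLA-C held only the short form AANNGAAA, at -155 to -148 and -151 to -144, and that form was present in 22.8% of all windows and for 7 of the 8 genes. The window of PSMB9 held neither form. By the coordinates above, TAP1 and PSMB9 are transcribed away from each other. The TAP1 copies thus lie upstream of PSMB9 as well, beyond the window searched for PSMB9. The printed stretches of HLA-B and HLA-C were identical at 87.7% of 204 aligned positions, and HLA-F at 80.8% with HLA-B, while TAP1 and TAP2 matched at 55.0%.

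Further motifs of class I promoters were searched on both strands in the same windows. TGACG, found in cyclic AMP response elements, was found for 6 of the 8 genes and in 24.6% of all windows. CCAAT was found for 6 of 8 and in 34.6% of all windows, with several copies each in HLA-B, HLA-C and HLA-F. An NF-kB-like pattern, GGG and TT with any 2 bases between them and then any base and CC, was found for TAP1, HLA-B and B2M, against 5.68% of all windows. A match is a run of letters, and no binding was measured.

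**Figure D1:**
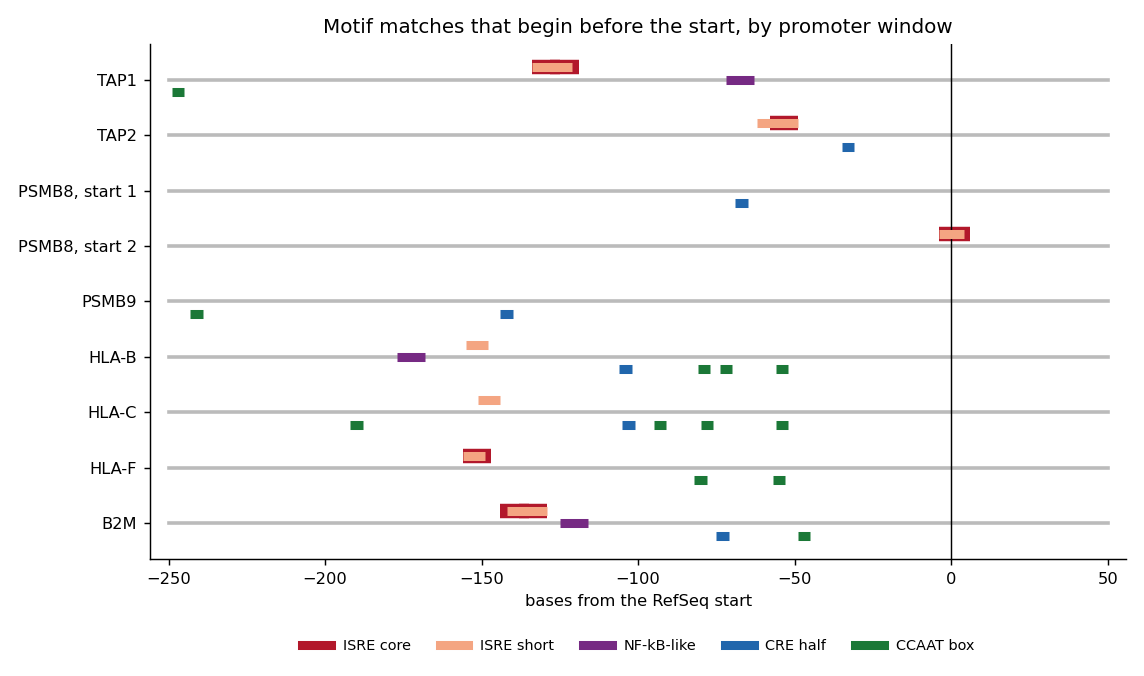
Motif matches that begin before the start in the windows of 8 genes. The x axis gives bases from the RefSeq start (line at 0), each grey line is a window, and colours mark the motifs named in the text (ISRE core, ISRE short for AANNGAAA, NF-kB-like, CRE for TGACG, and CCAAT). For TAP1 the first listed start is drawn, and for PSMB8 both starts; the matches to an ISRE form lie between 49 and 156 bases before the start except at PSMB8.

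After 24 h with C646, the levels of class I antigen presentation genes lay mostly above those with DMSO, led by the transporter gene TAP1, which was 1.78-fold higher. PSMB8 was 1.33-fold and HLA-E 1.29-fold higher. HLA-F, the PSMB9 and HLA-B with HLA-C probe sets and B2M lay between 1.10-fold and 1.17-fold higher, and TAP2 was at 0.985-fold. After 6 h the differences were small, between -0.10 for B2M and 0.17 for TAP2 on the log2 scale. None of the 8 reached 2-fold at either time.

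Before the single genes, some facts on the arrays bear on all of them. Pearson correlations over all probe sets were 0.975 to 0.979 for pairs that include the C646 array of 24 h, and 0.991 to 0.996 for the remaining pairs. Every 24 h difference rests on that array, and without it the 6 h differences alone remain. Of 11 listed melanocyte markers, 7 had a probe set of their own, and all 7 passed the filter. Of leukocyte markers 2 of 8 did, CD68 and NKG7, and the pan-leukocyte gene PTPRC read 3.33 to 3.37 on all arrays. The summed linear level of the leukocyte markers was 306 with C646 and 296 with DMSO at 24 h, and 302 and 281 at 6 h. That of the melanocyte markers was 3513 with C646 and 2566 with DMSO at 24 h, and 3475 and 2931 at 6 h. Such sums also hold markers below the filter, and single high markers weigh heavily in them. With C646 and DMSO at 24 h, CD68 read 7.77 and 7.71, and S100B 9.88 and 8.39. At 24 h S100B was at 1.49, MITF at 0.90, SOX10 at 0.74, MLANA at 0.40, PAX3 at 0.26, TYRP1 at 0.15 and PMEL at 0.078 (C646 minus DMSO). Fibroblast markers summed to 168 and 163 at 24 h and 156 and 164 at 6 h, with 3 of 7 above the filter (FAP at 0.53, COL1A1 at 0.0031 and LUM at -0.21 at 24 h). For keratinocyte markers, 2 of 5 passed (KRT10 at 0.16 and KRT15 at 0.10 at 24 h), with sums of 119 with C646 and 112 with DMSO at 24 h and 116 and 121 at 6 h. Of 5 endothelial markers only KDR passed, at 8.35 with C646 and 7.66 with DMSO at 24 h, and 8.65 and 8.12 at 6 h. The part of these shifts in the results below was not tested. In bulk RNA, more cells of a type and more transcript per cell cannot be told apart.

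TAP1 and TAP2 encode the partner subunits of the peptide transporter, and their patterns over the arrays were unlike. TAP1 read 8.20 with C646 and 7.37 with DMSO at 24 h, and 7.40 with C646 and 7.30 with DMSO at 6 h. The C646 array of 24 h stood 0.81 above the highest of the other arrays, which lay close together. The C646 minus DMSO difference was 0.83 at 24 h and 0.10 at 6 h. DMSO at 24 h minus DMSO at 6 h gave 0.078. Only 1.89% of the 16579 kept probe sets had a higher difference at 24 h. TAP2 read 6.42 with C646 and 6.44 with DMSO at 24 h, and 6.64 with C646 and 6.46 with DMSO at 6 h. Here the C646 array of 6 h was the high one, and the other arrays lay within a narrow band. The differences of TAP2 were -0.022 at 24 h and 0.17 at 6 h, and 15.7% of kept probe sets had a higher difference at 6 h.

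PSMB8, which encodes the immunoproteasome subunit LMP7, read 5.89 with C646 and 5.48 with DMSO at 24 h, and 5.74 with C646 and 5.60 with DMSO at 6 h. Both C646 arrays lay above both DMSO arrays. Its difference was 0.41 at 24 h and 0.14 at 6 h, and DMSO at 24 h minus DMSO at 6 h was -0.12. Set against the mean of both DMSO arrays, PSMB8 was higher by 0.35 at 24 h. The probe set of PSMB9, the gene of the subunit LMP2, and of PSMB8-AS1 read 4.56 with C646 and 4.34 with DMSO at 24 h, and 4.40 with C646 and 4.29 with DMSO at 6 h. These values sit near the filter, and their differences were 0.22 at 24 h and 0.11 at 6 h. In RefSeq's gene order TAP2, PSMB8, PSMB8-AS1, TAP1 and PSMB9 follow each other directly on chromosome 6, next to HLA-DOB. Their 24 h differences ran between -0.022 for TAP2 and 0.83 for TAP1.

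**Figure D2:**
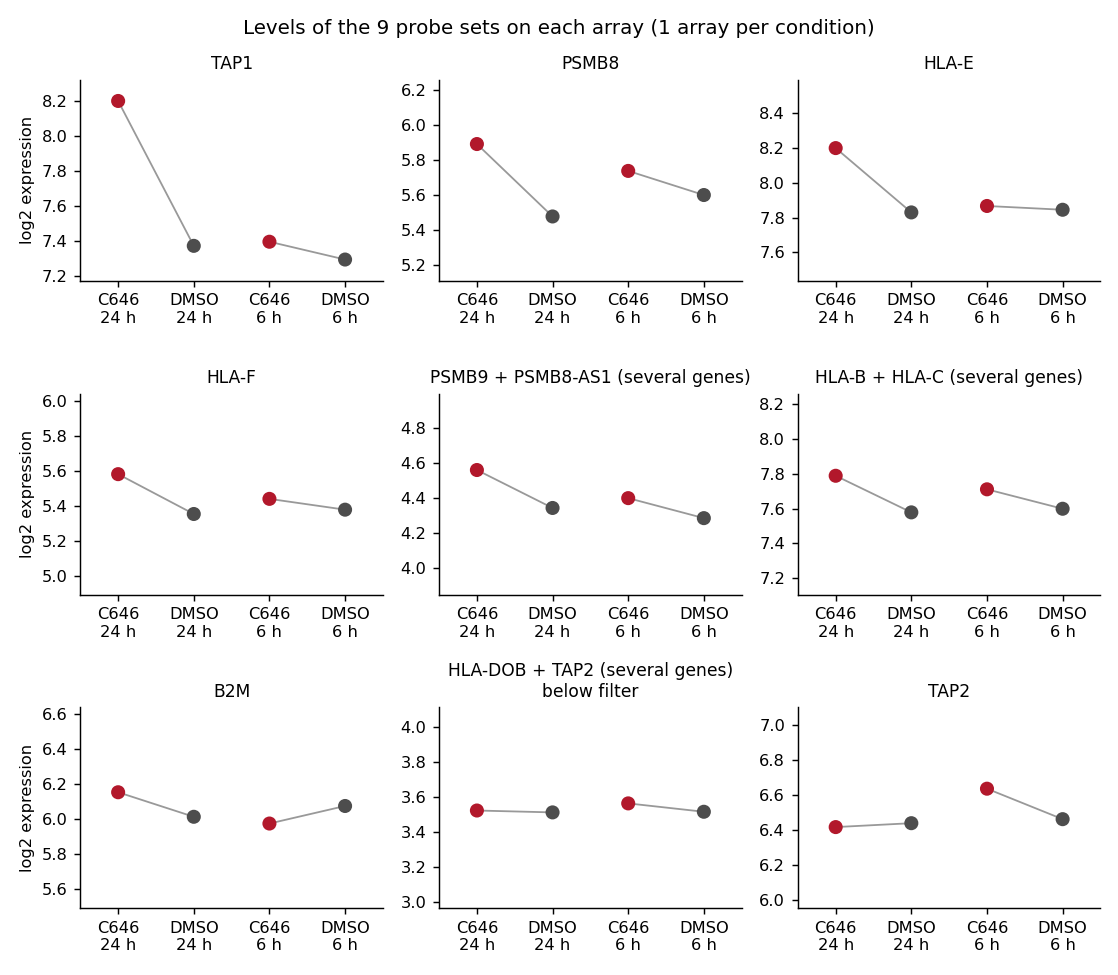
Log2 expression (y axis, each panel spanning the same number of log2 units around its own middle) of the 9 probe sets on each array, C646 in red and DMSO in grey, 24 h on the left and 6 h on the right of each panel. In TAP1 the C646 array of 24 h reads 8.20 and the others 7.30 to 7.40, whereas in TAP2 the C646 array of 6 h is highest, at 6.64.

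Among the heavy chains, HLA-E encodes a class I molecule known for presenting leader peptides of other class I chains to NK cell receptors. HLA-E read 8.20 with C646 and 7.83 with DMSO at 24 h, and 7.87 with C646 and 7.84 with DMSO at 6 h. As for TAP1, the C646 array of 24 h stood apart from the others. Its difference was 0.37 at 24 h and 0.022 at 6 h, and 12.4% of kept probe sets had a higher one at 24 h. The shared probe set of the classical heavy chains HLA-B and HLA-C read 7.79 with C646 and 7.58 with DMSO at 24 h, and 7.71 with C646 and 7.60 with DMSO at 6 h. This gave differences of 0.21 at 24 h and 0.11 at 6 h, with both C646 arrays above both DMSO arrays. HLA-F, a nonclassical heavy chain gene, read 5.58 with C646 and 5.35 with DMSO at 24 h, and 5.44 with C646 and 5.38 with DMSO at 6 h. Both C646 arrays again lay above both DMSO arrays, and the difference was 0.23 at 24 h and 0.062 at 6 h.

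B2M, the gene of the light chain that all these heavy chains share, differed in opposite directions at the 2 times. It read 6.15 with C646 and 6.01 with DMSO at 24 h, and 5.97 with C646 and 6.07 with DMSO at 6 h. The C646 arrays were thus the highest and the lowest of the 4, and the difference was 0.14 at 24 h and -0.10 at 6 h. Between the DMSO arrays of 24 h and 6 h it was -0.062.

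Counted over the 8 probe sets above the filter, 7 were higher with C646 than with DMSO at 24 h, where 55% of all kept probe sets were. The median difference was 0.22, beside 0.030 for all 16579. A lower threshold of 0.32 on the log2 scale, a linear ratio of 5 to 4, was also used. Higher by at least 0.32 were 3 of 8, namely TAP1, PSMB8 and HLA-E, against 15.4% of all, and 0 of 8 were lower by as much, against 12.1%. At least 2-fold higher were 0 of 8, against 1.14%. At 6 h, 7 of 8 again lay above 0, against 49.4% of all, with a median of 0.11 beside -0.0024. There 0 of 8 were higher by at least 0.32 and 0 lower, where 5.19% and 5.68% of all were. Both C646 arrays exceeded both DMSO arrays in 6 of 8, all but B2M and TAP2, against 25.7% of all kept probe sets. The margin was narrowest for TAP1 and HLA-E. There the C646 array of 6 h read 7.40 and 7.87, and the higher DMSO array 7.37 and 7.84. The probe sets come from the same 4 arrays, so they are no replicates of each other.

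**Figure D3:**
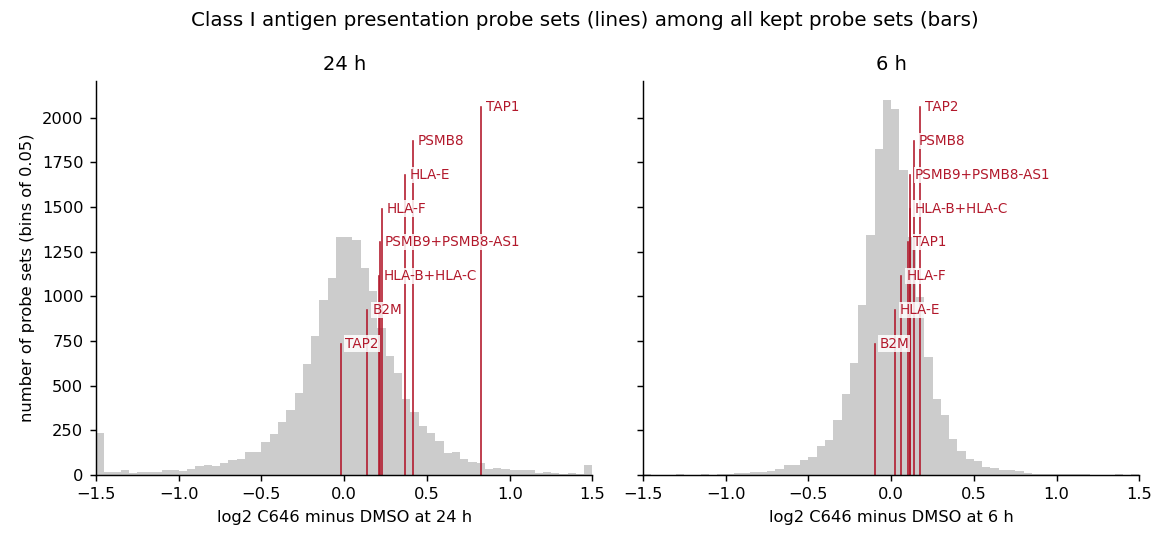
Number of kept probe sets (y axis) by log2 C646 minus DMSO difference (x axis, bins of 0.05, values beyond 1.5 pooled in the end bins) at 24 h on the left and 6 h on the right. Red lines mark the 8 class I antigen presentation probe sets, with heights chosen only to separate the labels; at 24 h TAP1 lies at 0.83, in the upper tail, while at 6 h all lie between -0.10 and 0.17.

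The vehicle cultures show how far arrays differed without C646, a contrast that includes the longer culture as well as array noise. Each DMSO array is also part of a C646 difference, so the sizes compared below are linked. Between DMSO at 24 h and DMSO at 6 h the 8 probe sets differed by -0.12 to 0.078, with a median of -0.022 beside -0.014 for all kept probe sets. The 24 h difference of C646 was larger in size than this drift in 7 of 8 probe sets, against 72.5% of all kept probe sets. The exception was TAP2, at -0.0223 beside a drift of -0.0230. The 6 h difference was larger than the drift in 8 of 8, against 58.7% of all. Under C646 itself, the array of 24 h was above that of 6 h in 7 of 8, against 53.5% of all, by up to 0.81 for TAP1, and TAP2 was at -0.22. The C646 difference was higher at 24 h than at 6 h in 7 of 8, against 55.4% of all kept probe sets. The 24 h minus 6 h difference was 0.73 for TAP1, 0.35 for HLA-E, 0.28 for PSMB8 and 0.24 for B2M, whereas TAP2 was at -0.20. This difference of differences was not tested.

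**Figure D4:**
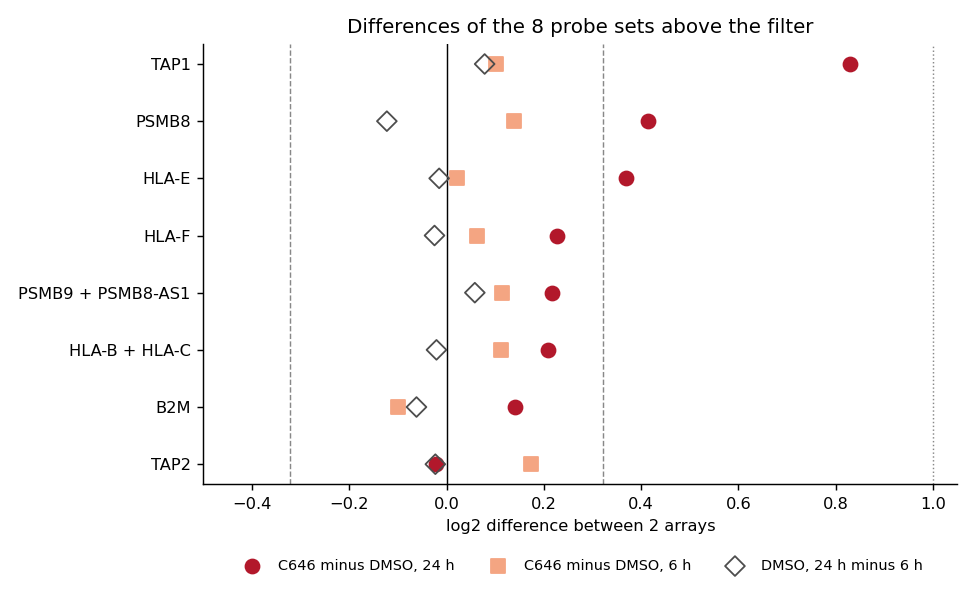
Log2 differences (x axis) of the 8 probe sets (rows): C646 minus DMSO at 24 h as red circles, C646 minus DMSO at 6 h as orange squares and DMSO at 24 h minus DMSO at 6 h as open diamonds. Dashed lines stand at 0.32 in either direction and the dotted line at 2-fold; only TAP1, PSMB8 and HLA-E at 24 h pass the dashed line.

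A fit over both times with limma, with time and treatment as terms on all 4 arrays, asked for an effect common to 24 h and 6 h. It called 0 of 16579 probe sets at an adjusted p under 0.05, and 1828 had an unadjusted p under 0.05, none of them among the 8. TAP1 had an estimate of 0.47 ± 0.21 (SE; limma adjusted p = 0.470) and PSMB8 one of 0.28 ± 0.12 (limma adjusted p = 0.465). The adjusted p of the other 6 ran between 0.499 for PSMB9 with PSMB8-AS1 and 0.958 for B2M. The fit has 1 residual degree of freedom, and its residual error is the disagreement between the effects at both times. In this and the following fits, limma moderates the residual error with a variance prior shared by all fitted probe sets. Leaving out an array also meant dropping the time term. Without the C646 array of 6 h and without that term, C646 at 24 h was set against both DMSO arrays, and limma called TAP1 (estimate 0.87 ± 0.098, adjusted p = 0.0144) and no other of the 8. That fit called 2252 of 16579 probe sets, takes its error from the DMSO pair and assumes that the lone C646 array varies alike. With the time term dropped and all 4 arrays kept, limma called 0, with 1608 at an unadjusted p under 0.05.

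Genes that act with the 9 in the same pathway were taken from lists. For all list counts from here on, 15.4% of all kept probe sets were higher by at least 0.32 at 24 h and 12.1% lower. At 6 h these shares were 5.19% and 5.68%. Of the other genes of the immunoproteasome and its activators, 4 of 5 were higher by at least 0.32 and 0 lower at 24 h, with a median of 0.34. PSMB10, the gene of the remaining inducible catalytic subunit, was at 0.43. PSME2 and PSME1, which encode the subunits of the proteasome activator PA28, were at 0.48 and 0.34. The assembly factor gene POMP was at 0.32, only just past the threshold. PSME3, which encodes a different, nuclear activator, was at -0.10. Their median at 6 h was -0.11, with 0 of 5 past that threshold. DMSO at 24 h minus DMSO at 6 h was -0.28 for PSME2, -0.18 for PSME1 and -0.15 for POMP. It was -0.072 for PSMB10 and -0.029 for PSME3, beside a median of -0.014 for all kept probe sets. For the 4 higher genes, part of the 24 h difference thus goes with a lower DMSO array of 24 h. The constitutive counterparts of the inducible catalytic subunits were at -0.15 for PSMB5, 0.30 for PSMB6 and 0.12 for PSMB7 at 24 h. Over 24 further proteasome subunits the median was -0.020, with 1 higher by at least 0.32 (PSMB4 at 0.73) and 2 lower (among them PSMC6 at -0.46). PSMD6 was at 0.24 and PSMC3 just short of the threshold at -0.32. For PSMB4, DMSO at 24 h minus DMSO at 6 h was -0.54.

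Of 8 measured genes of peptide loading and trimming, 1 was higher by at least 0.32 at 24 h and 1 lower, with a median of 0.025. The higher one was TAPBP, whose product tapasin bridges the TAP transporter and class I molecules. TAPBP read 8.52 with C646 and 8.0 with DMSO at 24 h, and 8.10 with C646 and 7.96 with DMSO at 6 h, a difference of 0.52 and 0.14 at these times. The lower one was SEC61B, a subunit gene of the translocation channel, at -0.35. The chaperone gene HSPA5 was at 0.26. The loading oxidoreductase gene PDIA3 was at -0.14, and the chaperone gene CALR at 0.016 at 24 h and 0.29 at 6 h.

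Of 10 measured regulators of class I transcription, 3 were higher by at least 0.32 at 24 h and 0 lower, with a median of 0.069. IRF9, the DNA-binding subunit of the complex that interferon signalling sends to ISRE sequences, read 6.37 with C646 and 5.67 with DMSO at 24 h, and 5.63 with C646 and 5.69 with DMSO at 6 h. Only the C646 array of 24 h was high, and the difference was 0.69 at 24 h and -0.058 at 6 h. RFX5, a factor that binds the X box of MHC promoters, was at 0.47 at 24 h and 0.34 at 6 h, and USF1 at 0.34 and 0.053. NLRC5, the class I transactivator gene, read 4.17 with C646 and 3.98 with DMSO at 24 h, close to the filter, a difference of 0.19. IRF1 was at -0.039, NFKB1 at -0.19 and NFYB at -0.18. Interferon receptor and kinase genes had a median of -0.049 over 7 genes, with 0 past 0.32 in either direction and IFNGR1 at 0.29. IFNGR2 was at -0.029, IFNAR2 at -0.19 and JAK2 at -0.15.

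Interferon-stimulated genes outside antigen presentation had a median of 0.35 at 24 h over 29 measured genes, with 16 higher by at least 0.32 and 1 lower. TRIM22 was at 1.94, OAS2 at 1.03 and SAMD9L at 0.97, SAMD9 at 0.67 and OAS1 at 0.59, while OAS3 was at -0.58 and ISG15 at -0.12. For TRIM22, DMSO at 24 h minus DMSO at 6 h was already 0.66. At 6 h the median was 0.063, with 5 higher by at least 0.32 and 1 lower. Over 7 measured MHC class II genes the median was 0.17 at 24 h and 0.19 at 6 h, with 0 past 0.32. HLA-DMB was at 0.19 at 24 h, CIITA, the class II transactivator gene, at 0.17, CTSS at 0.12 and HLA-DPB1 at -0.013. Class I-like genes split at 24 h, with MR1, which presents vitamin metabolites, at 0.49, PROCR at 0.32, and the stress ligand genes MICB and ULBP1 at -0.44 and -0.27. For 10 reference genes the median was 0.055 at 24 h and 0.0098 at 6 h, with GAPDH at 0.32 and 0.35. At 24 h TBP was at 0.22, HPRT1 at -0.031 and GUSB at -0.14.

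**Figure D5:**
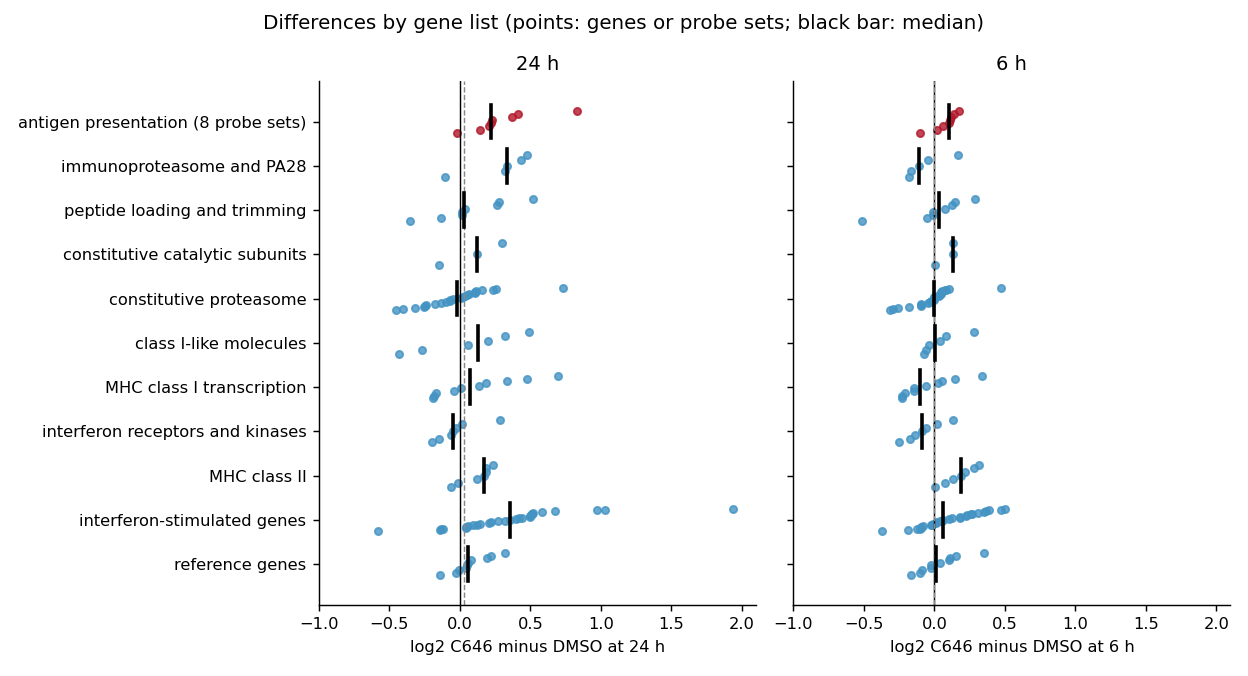
Log2 C646 minus DMSO differences (x axis) at 24 h on the left and 6 h on the right, by gene list (rows), with 1 point per gene, or per probe set in the top row, and a black bar at each median. The dashed line is the median of all kept probe sets (0.030 at 24 h); at 24 h the medians are 0.22 for antigen presentation, 0.34 for immunoproteasome and PA28 and 0.35 for interferon-stimulated genes, and -0.020 for the constitutive proteasome.

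The genes whose differences most resembled those of TAP1 were sought among 10706 other named genes, by Euclidean distance over C646 minus DMSO at 24 h, at 6 h and DMSO at 24 h minus 6 h. The nearest were BCO2 (distance 0.041), HSBP1L1 (0.069), ZNF79 (0.072), DUSP1 (0.075) and VAMP2 (0.076). Their differences at 24 h ran between 0.78 for HSBP1L1 and 0.90 for ZNF79.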

How the data were processed

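RNA of 4 cultures was hybridised to 1 exon array each. The authors deposited log2 values per gene-level probe set; how probes were summarised and arrays normalised was not given in the sources used here. Values spanned a log2 range (2.48 to 13.6, array medians 4.39 to 4.41). Per the submitters' processing notes the build was hg19, of which no coordinate was used. The number of arrays limits the precision.

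Symbols came from the platform annotation, updated through Entrez identifiers with RefSeq's GRCh38.p14 gene table. Of 27631 probe sets 20429 had 1 gene symbol, 4232 several and 2970 none. The 16579 with a mean at or above the 40th percentile were kept, and the highest-mean single-gene probe set stood for a listed gene. Differences are array minus array, with no p-value. limma 3.58.1 (R 4.3.3) was run with a trend in its variance prior, and p-values were adjusted by Benjamini-Hochberg over all kept probe sets. It was tested on simulated data with equal changes planted at both times; a change at 1 time only was not simulated.

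The members, lists and tests were chosen with earlier results of these data known. Named from each list were the 2 highest and 2 lowest by mean effect and all genes past 1.5-fold, and for TAP1 the 5 nearest genes; PSME1, CALR, NLRC5, IRF1 and USF1 were chosen after their values were seen. Promoter motifs were likewise chosen after the data were examined. The labels do not say whether cultures were independent.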

Additional observations from a re-analysis of the deposited data

How the results depend on the processing

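Alternatives covered the filter (none or the 60th percentile), quantile normalization, the mean of both DMSO arrays as vehicle, single-gene probe sets alone, averaging a gene's probe sets, the lower threshold of 0.32, eBayes without the trend, and each array left out together with the time term. A fit without the time term on all 4 arrays was added after seeing the data. Of 141 values recomputed, 137 kept their direction and side of the threshold or moved by less than 0.123 (the SD of the DMSO drift divided by the square root of 2) or, for counts, stayed within 1.5 times. The median at 24 h ran between 0.22 and 0.30, and at 6 h between 0.080 and 0.12. TAP1 at 24 h ran between 0.79 and 0.87 and HLA-E between 0.34 and 0.36. With 0.32 in place of 2-fold, 3 probe sets counted as different at 24 h, by that setting's own construction. With an array and the time term left out, the limma fit called between 0 and 2252 probe sets, and between 0 and 1 of the 8. The calls came only without the C646 array of 6 h, where TAP1 stood at 0.87; without the C646 array of 24 h its estimate was 0.063, and the limma adjusted p over these fits ran between 0.0144 and 1.00. With the time term alone dropped, limma called 0 probe sets and gave TAP1 0.47 (adjusted p = 0.589). That fit keeps the C646 pair in its residual error, and the fit with the calls takes its residual error from the DMSO pair alone. In both, limma moderates this error with its variance prior. B2M and TAP2 changed sign in some of these fits, without passing. No paired analysis was possible because the labels give no replicate numbers to use as a block; the time term already sets C646 against DMSO within each time.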

Other observations

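The neighbourhood of the genes on chromosome 6 was looked at after their values were seen. From HLA-F to TAPBP in RefSeq's gene order, 65 other named genes passed the filter. Their median difference was 0.072 at 24 h and 0.098 at 6 h. At 24 h 14 were higher by at least 0.32 on the log2 scale (21.5%) and 10 lower, against 15.4% and 12.1% of all kept probe sets. At 6 h 5 were higher and 1 lower, against 5.19% and 5.68% of all. So these other genes of the stretch had a lower median at 24 h than the 8 antigen presentation probe sets (0.22). Their median at 6 h was close to that of the 8 (0.11). The 8 include B2M, which lies on chromosome 15, outside the stretch. No test of the differences between these medians was made.

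Genes with the ISRE core in a promoter window were also described across the whole table. Of 334 such genes above the filter, 78 (23.4%) were higher by at least 0.32 with C646 at 24 h, and of 8330 genes with a window and no match, 1190 (14.3%) were. The medians were 0.076 and 0.027. At 6 h the shares were 5.09% and 4.67%. The 334 genes include TAP1, TAP2, PSMB8, HLA-F and B2M, and the listed interferon-stimulated genes were not taken out either. The shares are therefore not independent of the values given above for those genes. Genes of 1 array pair are not independent, no test was made, and a match does not show that a factor binds.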
